A study of Mus musculus with 3 samples.

Results

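The 9 cytotoxic effector genes described here are Gzma, Gzmb, Gzmk, Prf1, Nkg7, Klrd1, Ifng, Fasl and Xcl1, listed by name out of the 32285 genes counted in immune cells of the mouse aorta. The list is one of names and sets no limit on a level. Their levels and the share of cells with at least 1 transcript were compared between natural killer (NK) cells, CD8 T cells, CD4 T cells, gamma-delta T cells and dendritic cells, and between 3 libraries. Every library is labelled ApoE-/- on C57BL/6J, a genotype without functional apolipoprotein E that clears lipoproteins poorly and develops atherosclerosis. The control group (Ctrl) received no further agent per the labels, the HHcy group drank water with homocysteine (1.8 g/L) for 4 weeks, and the WD group ate a western diet for 4 weeks. Live CD45+ cells were sorted from enzyme-digested whole aortas that kept their adventitia, with 1 library per group. The labels give no number of animals per library, age or sex.

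Killer lymphocytes destroy target cells through granules that hold perforin and granzymes. Perforin, the product of Prf1, opens the target's membrane, and granzymes are proteases that then enter and trigger cell death. A second route uses Fas ligand, the product of Fasl, which engages the death receptor Fas. The same cells secrete interferon gamma (Ifng), which activates macrophages, and the chemokine Xcl1, which attracts dendritic cells that carry its receptor Xcr1. Nkg7 encodes a granule membrane protein, and Klrd1 encodes CD94, which pairs with the NKG2 receptors encoded by Klrc1 and Klrc2.

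In the GENCODE annotation of GRCm38, 2 of the 3 granzyme genes are neighbours on the minus strand of chromosome 13, Gzma at chr13:113093825-113100981 and Gzmk at chr13:113171608-113225908. Gzmb lies apart from them at chr14:56258838-56262260 on the minus strand. Prf1 (chr10:61297833-61304680) and Ifng (chr10:118441046-118445892) are on the plus strand of chromosome 10. Nkg7 (chr7:43437073-43438249) and Klrd1 (chr6:129591782-129598775) are also on the plus strand, and Fasl (chr1:161780689-161788495) and Xcl1 (chr1:164931644-164935527) are on the minus strand of chromosome 1.

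RefSeq promoter sequences (GRCm38.p6, 250 bases before to 50 after the start, gene strand, 5′ to 3′) were found for 8 of the 9 genes, all but Klrd1. The promoters of Prf1, Gzma and Gzmk are shown because these are the granule genes with the largest fold changes between NK and CD8 T cells, Prf1 and Gzma towards NK cells and Gzmk towards CD8 T cells. Capitals mark matches to motifs of factor families known in killer lymphocytes: AGGTGT for T-box factors, TGTGGT for RUNX factors and CTTTGA for TCF/LEF factors, searched on both strands. These promoters lie at chr10:61297586-61297885 on the plus strand (Prf1), chr13:113100932-113101231 on the minus strand (Gzma) and chr13:113180916-113181215 on the minus strand (Gzmk). The Gzmk promoter lies inside the GENCODE span of Gzmk given above, so the RefSeq start used here is not the GENCODE gene start at chr13:113225908.
Prf1: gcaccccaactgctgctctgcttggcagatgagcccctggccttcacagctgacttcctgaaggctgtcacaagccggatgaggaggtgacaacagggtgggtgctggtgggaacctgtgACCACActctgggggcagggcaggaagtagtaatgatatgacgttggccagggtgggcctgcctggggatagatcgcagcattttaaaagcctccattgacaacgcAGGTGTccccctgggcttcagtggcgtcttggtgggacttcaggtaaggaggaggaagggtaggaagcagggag
Gzma: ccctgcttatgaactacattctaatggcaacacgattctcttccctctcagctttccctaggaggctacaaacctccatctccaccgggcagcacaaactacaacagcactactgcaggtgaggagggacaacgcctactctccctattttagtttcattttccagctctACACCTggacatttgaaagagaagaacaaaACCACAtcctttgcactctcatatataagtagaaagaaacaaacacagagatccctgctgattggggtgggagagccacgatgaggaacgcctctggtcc
Gzmk: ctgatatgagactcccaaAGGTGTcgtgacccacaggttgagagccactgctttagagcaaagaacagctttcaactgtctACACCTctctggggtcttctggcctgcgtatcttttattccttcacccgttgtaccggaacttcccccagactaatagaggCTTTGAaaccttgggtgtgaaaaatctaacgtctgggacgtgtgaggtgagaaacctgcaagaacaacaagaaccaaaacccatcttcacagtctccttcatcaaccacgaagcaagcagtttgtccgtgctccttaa

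The Prf1 promoter held 1 T-box match 24 bases and 1 RUNX match 130 bases before the start, and the Gzma promoter held 1 T-box match 80 bases and 1 RUNX match 50 bases before it. The Gzmk promoter held 2 T-box matches and the only TCF/LEF match among the 8 promoters, 88 bases before its RefSeq start. T-box letters occurred in 4 of the 8 promoters (Nkg7, Prf1, Gzma and Gzmk) and in 13.7% of 32851 RefSeq promoters of the same length. RUNX letters occurred in 5 (Xcl1, Nkg7, Prf1, Gzma and Gzmb) and in 16.8% of all promoters, and TCF/LEF letters in 1 and in 16.0%. These matches describe the letters and are not measured binding sites.

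The 3 libraries held 7512 to 9753 barcodes with median counts of 6664 to 7678 UMIs (unique molecular identifiers, which count transcripts). After limits on genes and mitochondrial UMIs, 10.2% (Ctrl), 20.6% (HHcy) and 19.2% (WD) of the barcodes had marker genes from several lineages and were not used, so that there remained 5419 to 6479 cells per library. The barcodes left out for several lineages held between 34.5% (Klrd1) and 58.5% (Ifng) of all UMIs of each of the 9 genes. From 20 to 24 barcode sequences were shared between each pair of libraries. The strain label was checked with Apoe, which stood at 16.3, 374 and 19.3 CPM (counts scaled to a common library total) in the Ctrl, HHcy and WD libraries. The library labelled HHcy thus stood apart from the others on the gene that all are labelled to lack. Apoe had a UMI in 4.47%, 24.3% and 6.44% of B cells of the Ctrl, HHcy and WD libraries. The sources used here do not say which part of Apoe is disrupted, so these levels cannot check the allele itself. The difference between libraries under the same label remains, and its source was not tested. In ratios of the HHcy-labelled library it cannot be told apart from the treatment. Results that use this library are given with that library named by its label, and the tests between cell classes also without it.

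Lymphoid cells were assigned by receptor transcripts that include none of the 9 genes, which were also kept out of clustering. NK cells lacked Cd3d, Cd3e, Cd4 and Cd8b1, carried Ncr1 or Klrb1c, and carried at least 3 of 12 NK receptor genes, which include Ncr1 and Klrb1c. CD8 and CD4 T cells carried Cd3d or Cd3e with Cd8a or Cd8b1, or with Cd4, and gamma-delta T cells carried the receptor constant gene Trdc. This gave 23, 18 and 14 NK cells, 58, 81 and 41 CD8 T cells, 26, 50 and 38 CD4 T cells and 16, 23 and 22 gamma-delta T cells in the Ctrl, HHcy and WD libraries. Of the defining markers, Ncr1 was found in 92.7% of NK cells, Cd8a in 88.9% of CD8 T cells, and Cd209a in 69.1% of the 567 cells of the cDC2-like dendritic cluster. T cell receptor transcripts were also found in NK cells: Trdc in 18.2%, Trac in 14.5% and Trbc2 in 34.5%. Trbc2 was found in 17.4% and 42.9% of NK cells of the Ctrl and WD libraries and in 9 of 18 of the HHcy-labelled library, and Cd3g in 16.7% of those of the HHcy-labelled library and in none of the others. Their part in the differences between libraries was not tested. The macrophage gene Lyz2 had a UMI in 61.8% of NK cells, 70.6% of CD8 T cells and 61.6% of B cells, and its part in the results was not tested.

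Cells that should lack the 9 genes set the background. Of 6833 B cells, between 0.0585% (Gzmk) and 1.33% (Gzma) had a UMI of a given gene, at medians of 6653 to 8346 UMIs per cell, and B cell levels lay at or below 2.65 CPM for every gene in every library. The median NK cell had 6082, 6145.5 and 8495 UMIs in the Ctrl, HHcy and WD libraries, and the median CD8 T cell 5114, 7368 and 5394. Shares of positive cells in NK and CD8 T cells were well above these B cell shares for every gene except Gzmk in NK cells.

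**Figure D1:**
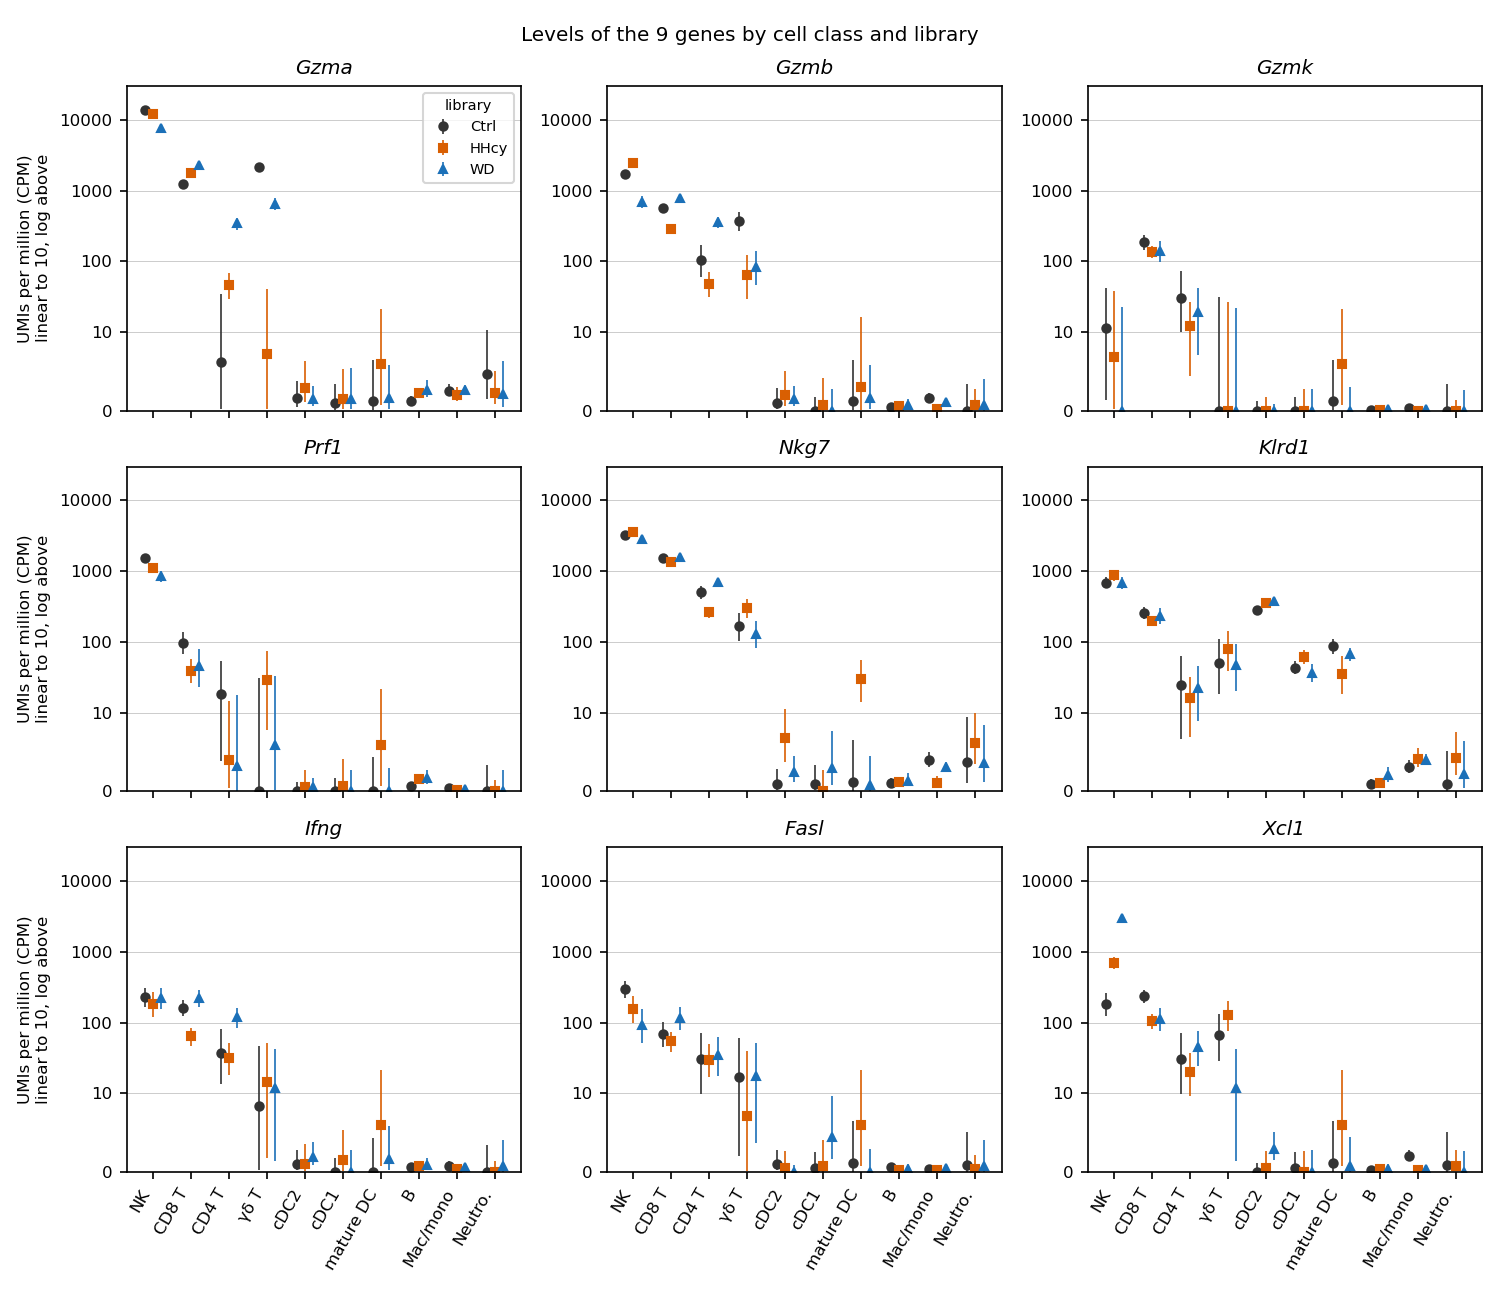
Levels of the 9 genes in CPM (vertical axis, linear to 10 and logarithmic above) by cell class (horizontal axis) in the Ctrl, HHcy and WD libraries; bars are exact 95% Poisson intervals of the class sum. NK cells were highest for Gzma, Prf1, Nkg7 and Klrd1 in each library, CD8 T cells for Gzmk, and Klrd1 alone was raised in dendritic classes.

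The granule genes separated NK cells from CD8 T cells. Gzma stood at 13915, 12102 and 7739 CPM in NK cells of the Ctrl, HHcy and WD libraries and at 1229, 1779 and 2298 CPM in CD8 T cells. The lowest NK value was above the highest CD8 T value, and 83.3% to 92.9% of NK cells against 37.0% to 43.9% of CD8 T cells were Gzma-positive. Prf1 stood at 1511, 1117 and 851 CPM in NK cells and at 98.0, 39.4 and 45.0 CPM in CD8 T cells. These ranges did not overlap either, and from 77.8% to 100% of NK cells carried it.

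Gzmb, the granzyme that activates caspases, overlapped between the classes. It stood at 1701, 2465 and 683 CPM in NK cells and at 565, 289 and 780 CPM in CD8 T cells, and the WD library's NK value was below its CD8 T value. Positive cells still differed, at 82.6% to 85.7% of NK cells and 39.5% to 56.1% of CD8 T cells.

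Gzmk, a granzyme known from memory T cells, had the opposite pattern. It stood at 188, 137 and 139 CPM in CD8 T cells, where 33.3% to 46.3% of cells were positive, and NK cells held 2, 1 and 0 UMIs. CD4 T cells stood at 30.7, 12.0 and 19.2 CPM, below every CD8 T value. The 61 gamma-delta T cells held no Gzmk UMI, which allows levels up to 25.2, 21.5 and 17.8 CPM in the 3 libraries (3 counts of each class total).

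Nkg7, the granule membrane protein, fell from NK to CD8 T to CD4 T cells in every library. NK cells stood at 3286, 3562 and 2882 CPM, CD8 T cells at 1537, 1356 and 1571 CPM, CD4 T cells at 504, 264 and 706 CPM and gamma-delta T cells at 168, 301 and 131 CPM. The ranges of NK, CD8 T and CD4 T cells did not overlap, and those of CD4 and gamma-delta T cells did. Klrd1 stood at 689, 872 and 689 CPM in NK cells and at 258, 200 and 232 CPM in CD8 T cells, again without overlap. It was low in CD4 T cells, at 24.6, 16.0 and 22.4 CPM, and intermediate in gamma-delta T cells, at 50.5, 78.9 and 47.6 CPM.

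The secreted and surface effectors overlapped more. Ifng stood at 230, 184 and 224 CPM in NK cells and at 162, 63.8 and 221 CPM in CD8 T cells. Fasl stood at 299, 157 and 93.2 CPM in NK cells and at 69.99, 54.3 and 116 CPM in CD8 T cells. Xcl1 was the most uneven gene: NK cells stood at 184, 701 and 3037 CPM, and a single cell held 34.4%, 66.0% and 81.0% of those UMIs. In CD8 T cells Xcl1 stood at 235, 105 and 112 CPM, and a single cell held 64.3% and 48.1% of the UMIs in the Ctrl and HHcy libraries and 21 of 30 in WD.

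Of the 9 genes, 6 passed the test between NK and CD8 T cells. edgeR's quasi-likelihood test was run on UMI sums per class and library, with the library as a block and Benjamini-Hochberg adjustment over 11583 genes, of which 3.41% passed at an adjusted p of 0.05. The 3 libraries of a class are its replicates and differ in treatment, so the p-values measure spread between these libraries only. The fit held all named classes, which share the estimate of spread, so it does not come from NK and CD8 T cells alone. Prf1 was higher in NK cells by 4.17 on the log2 scale (SE 0.37, adjusted p = 4.84e-10), Gzma by 2.63 (SE 0.65, adjusted p = 0.0118), Xcl1 by 2.80 (SE 0.50, adjusted p = 0.00027), Gzmb by 1.65 (SE 0.40, adjusted p = 0.0101) and Klrd1 by 1.57 (SE 0.29, adjusted p = 0.000289). Gzmk was lower in NK cells, with a log2 fold change of -4.81 (SE 0.84, adjusted p = 0.000386) that rests on 3 NK UMIs. For Xcl1 a single cell held most of the NK UMIs in the HHcy and WD libraries, and the test was not rerun without such cells. In the Ctrl library Xcl1 was lower in NK (184 CPM) than in CD8 T cells (235 CPM). Nkg7 (0.99, adjusted p = 0.0958), Fasl (1.10, adjusted p = 0.129) and Ifng (0.50, adjusted p = 0.538) did not pass.

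The median of the 9 fold changes was 1.57, against -0.11 for all genes tested. Without the HHcy-labelled library Gzmb no longer passed (0.77, adjusted p = 0.472), and the other 5 genes did. DESeq2 kept only Prf1 and Klrd1 past the threshold and gave adjusted p = 0.172 for Gzma, 0.188 for Gzmb, 0.334 for Gzmk and 0.0525 for Xcl1. Without the Ctrl library Gzma (adjusted p = 0.0522) and Gzmb (adjusted p = 0.0649) missed it, and without the WD library Xcl1 did (1.31, adjusted p = 0.146). With sub-clusters in place of receptor gates Klrd1 missed it narrowly (adjusted p = 0.0615) and Xcl1 turned to -0.17. Nkg7 and Fasl did not pass in 10 and 9 of 12 alternatives and passed in the rest. Their lowest adjusted p-values were 1.14e-05 and 0.00233 (edgeR), and Ifng passed in none.

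**Figure D2:**
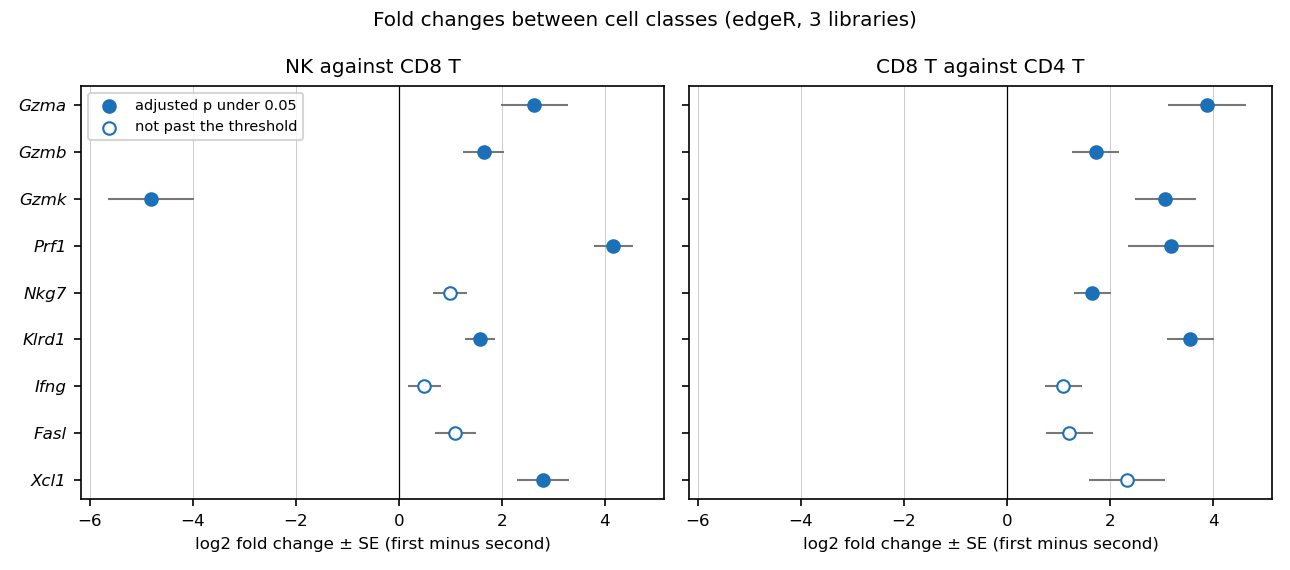
Log2 fold changes ± SE of the 9 genes (horizontal axis) between NK and CD8 T cells and between CD8 and CD4 T cells, from edgeR over 3 libraries; filled points have an adjusted p under 0.05. Prf1 lies at 4.17 and Gzmk at -4.81 for NK against CD8 T cells, and all 9 genes lie above 0 for CD8 against CD4 T cells.

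CD8 T cells exceeded CD4 T cells for 6 of the 9 genes. Klrd1 was higher by 3.56 on the log2 scale (SE 0.46, adjusted p = 1.74e-06), Gzma by 3.88 (SE 0.75, adjusted p = 0.00148), Gzmk by 3.07 (SE 0.59, adjusted p = 0.00294) and Nkg7 by 1.66 (SE 0.36, adjusted p = 0.0057). Gzmb (1.73, adjusted p = 0.0375) and Prf1 (3.18, adjusted p = 0.0408) passed closer to the threshold. Of all genes 1.40% passed in either direction, and 0.475% were higher in CD8 T cells. Xcl1 (2.33, adjusted p = 0.128), Ifng (1.10, adjusted p = 0.131) and Fasl (1.21, adjusted p = 0.25) did not pass. These 3 also did not pass in 9, 11 and 11 of 12 alternatives and passed in the rest. Their lowest adjusted p-values were 8.89e-11, 0.010 and 0.048 (edgeR).

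Klrd1 passed this comparison under every alternative tried. Without the HHcy-labelled library Gzmb (adjusted p = 0.249), Gzmk (adjusted p = 0.0949) and Prf1 (adjusted p = 0.209) no longer passed, while Gzma, Nkg7 and Klrd1 did. DESeq2 kept only Gzma and Klrd1, with adjusted p = 0.295 for Gzmb, 0.737 for Gzmk, 0.44 for Prf1 and 0.394 for Nkg7. Without the Ctrl library Gzmb (adjusted p = 0.265), Prf1 (0.0637) and Nkg7 (0.0928) missed the threshold, and without WD Prf1 did (0.129). Gates of 2 UMIs ended the calls of Gzmb (0.333) and Prf1 (0.0633), and keeping doublets that of Gzma (0.0735). Prf1 rested on 3, 2 and 1 UMIs in the CD4 T cells of the Ctrl, HHcy and WD libraries.

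CD4 T cells held few granzyme transcripts, and these lay in few cells. Gzma had 1, 23 and 107 UMIs in 1 of 26, 5 of 50 and 5 of 38 cells of the Ctrl, HHcy and WD libraries, and 48.6% of the WD UMIs came from 1 cell. Gzmb had 17, 24 and 111 UMIs in 3, 3 and 11 cells. Of 15 CD4 T cells with a Foxp3 UMI, the marker of regulatory T cells, 4 carried Gzmb.

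Gamma-delta T cells held granzymes in single cells. In the Ctrl library 1 cell carried 98.5% of 259 Gzma UMIs, and in the WD library 1 cell carried 78.0% of 109. Each library's Gzmb UMIs, 44, 9 and 14, came from 1 cell. Against CD4 T cells only Ifng passed, lower in gamma-delta T cells with a log2 fold change of -2.67 (SE 0.74, adjusted p = 0.0469), where 1.86% of all genes passed. Ifng stood at 8.41, 14.3 and 11.9 CPM there and at 36.9, 32.1 and 118 CPM in CD4 T cells. That call was lost without the HHcy-labelled library (adjusted p = 0.0795), without Ctrl (0.0802) or WD (0.675), without the block (0.15) and under DESeq2 (0.19). Keeping doublets also ended it, and it held in 5 of 11 alternatives. Gzma had the larger fold change, 2.75, and did not pass (adjusted p = 0.0561). Under some alternatives Gzma, Nkg7 and Xcl1 passed, with lowest adjusted p-values of 7.04e-23, 4.4e-06 and 0.0456 (edgeR).

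Within single cells, NK cells carried most of the 9 genes at once. The median NK cell carried 6 of the 9 genes, the median CD8 T cell 4, the median CD4 T cell 1 and the median gamma-delta T cell 0. At least 5 genes were found in 50 of 55 NK cells (90.9%), 75 of 180 CD8 T cells (41.7%), 9 of 114 CD4 T cells (7.89%) and 2 of 61 gamma-delta T cells (3.28%). Thinned to 1000 UMIs per cell, 25 of 54 NK cells and 13 of 180 CD8 T cells still carried 5 or more. These are counts of cells pooled over libraries and were not tested.

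A UMI of Gzma, Gzmb or Gzmk was found in 114 CD8 T cells, and a UMI of Prf1 in 55. The 55 cells held 76 Prf1 UMIs in all, so a CD8 T cell without one was not shown to lack Prf1, and the share of cells with granzymes and no perforin cannot be read at this depth. Of the 69 Gzmk-positive CD8 T cells, 46 also carried Gzmb, 39 carried Gzma and 29 carried Prf1, and 15 carried none of these 3. Prf1 was found in 42.0% of Gzmk-positive and 23.4% of Gzmk-negative CD8 T cells, pooled over libraries. By library the shares were 56.5% and 28.6% (Ctrl), 37.0% and 20.4% (HHcy) and 31.6% and 22.7% (WD). Cells with more UMIs are more likely to show both genes, depth was not matched, and the difference was not tested.

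Between libraries there was no replicate, so differences within a class carry no test. A gene was called apart when its levels differed at least 2-fold with at least 10 UMIs in both libraries together. Intervals cover counting error only, and the comparisons with Ctrl share that library. The median log2 ratio of all genes lay between -0.10 and 0.06 in the 12 comparisons within NK and T cell classes.

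In NK cells Xcl1 differed most. It was called higher in the HHcy-labelled library than in Ctrl (log2 ratio 1.93, 95% interval 1.35 to 2.55), 1 of 8 genes with enough UMIs against 15.8% of all genes. In WD against Ctrl, 3 of 8 were called against 21.2% of all genes: Xcl1 was higher (4.05, 3.53 to 4.61), and Gzmb (-1.32, -1.64 to -0.995) and Fasl (-1.68, -2.62 to -0.83) were lower. Between the HHcy-labelled and WD libraries 2 of 8 were called against 17.0%, Gzmb with a log2 ratio of 1.85 and Xcl1 with -2.11. Without the cell with the most Xcl1 UMIs in each library, the Xcl1 ratios to Ctrl were 1.27 and 2.54. Xcl1-positive NK cells numbered 8 of 23, 8 of 18 and 10 of 14. The share of Gzmb-positive NK cells lay within 82.6% to 85.7% in all 3 libraries, while the Gzmb level differed.

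In CD8 T cells every gene called against Ctrl was lower than in Ctrl. Against Ctrl, the HHcy-labelled library had 3 of 9 genes called (15.1% of all genes): Ifng (-1.35, -1.93 to -0.77), Prf1 (-1.32, -2.08 to -0.56) and Xcl1 (-1.17). WD had 2 of 9 called (15.4%), Prf1 (-1.12, -2.20 to -0.14) and Xcl1 (-1.06). Between the HHcy-labelled and WD libraries 3 of 9 were called (15.5%), Ifng (-1.79, -2.38 to -1.22), Gzmb (-1.43) and Fasl (-1.10), all lower in the HHcy-labelled library. Without the top cell of each library the Xcl1 ratio of the HHcy-labelled library to Ctrl was -0.63. Over 9 alternative settings the Prf1 call of the HHcy-labelled library over Ctrl and the Ifng call of HHcy over WD were kept in all 9. The Prf1 call of WD over Ctrl was kept in 4 (nearest to 0 at -0.46), the Fasl call of HHcy over WD in 4 (-0.043) and the Ifng call of HHcy over Ctrl in 6 (-0.31). The share of Ifng-positive CD8 T cells was 32.8%, 32.1% and 31.7% in the Ctrl, HHcy and WD libraries, and the median positive cell held 3, 1 and 2 Ifng UMIs. From the list of other secreted and surface effectors, 3 of 5 genes with enough UMIs were lower in the HHcy-labelled CD8 T cells than in Ctrl: the chemokines Ccl3 (-1.75) and Ccl4 (-1.41) and the cytokine Tnf (-1.34). In the same comparison the other lists had 0 of 6 (granule proteins), 0 of 10 (release machinery), 0 of 10 (receptors of killer cells), 1 of 10 (transcription factors) and 2 of 11 (receptors, ligands and inhibitors on the other side) called, against 15.1% of all genes.

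**Figure D3:**
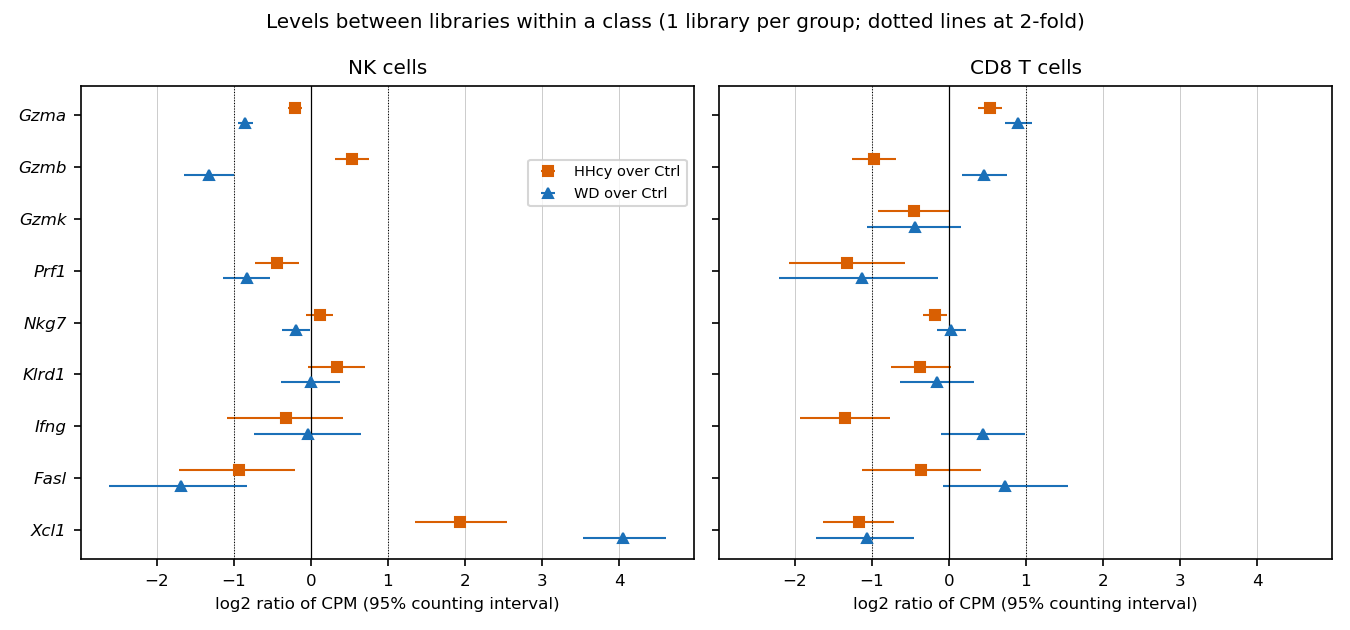
Log2 ratios of CPM (horizontal axis) of the HHcy and WD libraries over Ctrl for each gene in NK and CD8 T cells, with 95% counting intervals; dotted lines mark 2-fold. Xcl1 lies at 1.93 and 4.05 in NK cells and at -1.17 and -1.06 in CD8 T cells; Gzmk is not shown for NK cells, which held 3 UMIs.

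In CD4 T cells the calls rested on few cells. Against Ctrl, 3 of 8 genes were called in the HHcy-labelled library (19.3% of all genes), Gzma higher and Gzmb and Gzmk lower. In WD 3 of 8 were called (19.5%), all higher: Gzma (5.80, 3.29 to 11.1, on 1 Ctrl UMI), Gzmb (1.76) and Ifng (1.68). Between the HHcy-labelled and WD libraries 5 of 8 were called (16.2%), all lower in the HHcy-labelled library, among them Gzmb (-2.88) and Nkg7 (-1.42). In gamma-delta T cells 2 of 5 (24.1%), 3 of 5 (22.4%) and 3 of 5 genes (22.4%) were called in HHcy against Ctrl, WD against Ctrl and HHcy against WD. Most Gzma UMIs of Ctrl and WD and all Gzmb UMIs lay in the single cells named above. The Gzma calls of HHcy over Ctrl and WD over Ctrl were each kept in 4 of 7 alternatives with a value. The Gzma call of HHcy over WD was kept in 7 of 7 (nearest to no change at -2.06).

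T cells that met none of the other gates (31, 51 and 55 cells in the Ctrl, HHcy and WD libraries) held more of most of these genes in WD than in Ctrl. All 9 genes were called, against 21.8% of all genes, 7 of them higher in WD. Gzma stood at 60.1, 387 and 2217 CPM, with 6.45%, 13.7% and 34.5% of cells positive, Gzmb at 42.1, 91.7 and 390 CPM, and Klrd1 at 36.0, 100.3 and 241 CPM. Prf1 had 0, 13 and 39 UMIs. Ifng (433, 83.1 and 204 CPM) and Xcl1 (300.4, 126 and 133 CPM) were lower in WD, and 58.3% of the Ctrl Ifng UMIs came from 1 cell. The class is mixed: it holds cells with none of the gate genes and cells with a combination no gate takes, and Cd4 was found in 15.3%, Cd8b1 in 13.9%, Cd8a in 10.9% and Trdc in 5.11% of it. NK markers moved with the difference, Ncr1 being found in 0%, 3.92% and 12.7% and Klrb1c in 0%, 5.88% and 14.5% of the cells of the Ctrl, HHcy and WD libraries. Of 9 killer cell receptor genes with enough UMIs 6 were higher and 1 lower in WD than in Ctrl. The part of these cells in the result was not tested. The median cell of this class had 4547, 5479 and 4627 UMIs.

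Dendritic cells carried Klrd1 and little of the other 8 genes. In the cDC2-like cluster, marked by Cd209a, it stood at 287, 350 and 381 CPM in the Ctrl, HHcy and WD libraries, between NK and CD8 T cells and without overlap with either. From 71.8% to 80.9% of these cells were positive, and single cells held up to 25, 36 and 51 UMIs. The other 8 genes lay between 0 and 6.81 CPM there. This cluster held 61.4% of all Klrd1 UMIs of the cells used.

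**Figure D4:**
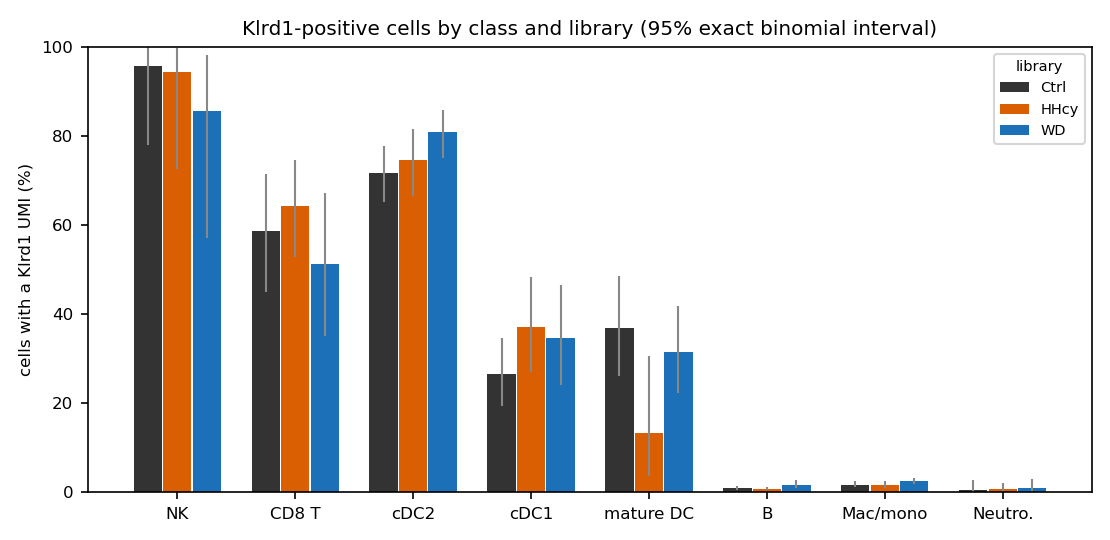
Share of cells with a Klrd1 UMI (vertical axis, percent) by cell class in the Ctrl, HHcy and WD libraries, with exact 95% binomial intervals. The cDC2-like cells lie at 71.8% to 80.9%, above CD8 T cells at 51.2% to 64.2%, and B cells lie at 0.817% to 1.72%.

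Of the NK and T cell genes, some were at or near 0 in these dendritic cells and others were not. Ncr1 and Klrb1c had no UMI in any of the 567 cells, and Cd3e had one in 1.06%. Klrk1, a gene of the NK gate, had a UMI in 50.2%, 52.9% and 50.9% and Cd7 in 36.4%, 63.8% and 45.5% of the cells of the Ctrl, HHcy and WD libraries. Among cDC2-like cells without a UMI of Cd3d, Cd3e, Cd3g, Trac, Trbc1, Trbc2, Ncr1 or Klrb1c, 70.4%, 74.4% and 81.5% still carried Klrd1. The genes of its NKG2 partners were near background, with Klrc1 at 1.29, 0.487 and 0.972 CPM and Klrc2 at 0.965, 0.487 and 1.21 CPM, against 408, 197 and 342 CPM and 442, 504 and 292 CPM in NK cells. The cDC2-like cells were deeper than lymphocytes, with medians of 14482, 14992 and 17264 UMIs. Thinned to 1000 UMIs, 18.3%, 27.0% and 29.5% of them were positive, against 24.1%, 19.8% and 12.2% of CD8 T cells and 12 of 22, 9 of 18 and 8 of 14 NK cells.

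Klrd1 was higher in cDC2-like cells than in macrophages and monocytes by 6.57 on the log2 scale (SE 0.31, adjusted p = 4.16e-20), where it was the only one of the 9 genes to pass and 32.1% of all genes passed. Macrophages and monocytes stood at 3.08, 4.11 and 3.98 CPM. The cDC1-like cells, which carry Clec9a and cross-present antigen, stood at 43.3, 61.1 and 36.4 CPM, with a log2 fold change of -2.75 to cDC2-like cells (SE 0.28, adjusted p = 1.8e-10). Klrd1 was again the only one of the 9 to pass, where 17.2% of all genes passed. Both calls held without the HHcy-labelled library (6.65 and -2.92) and under every other alternative. The cluster was drawn from other genes of the same cells, without Klrd1. Genes alike to Klrd1 in level were not kept out for that reason, so the border is not independent of Klrd1.

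Plasmacytoid dendritic cells numbered 3, 38 and 7 and stood at 267, 263 and 291 CPM of Klrd1. Mature dendritic cells, marked by Fscn1, stood at 86.3, 35.7 and 66.6 CPM. In HHcy against Ctrl 2 of 2 genes with enough UMIs were called in them, where 14.9% of all genes were: Klrd1 was lower (-1.28, 4 of 30 against 28 of 76 cells positive), and Nkg7 was higher, with all 10 UMIs in 1 barcode. In cDC2-like cells Klrd1 was not called in either comparison with Ctrl, with log2 ratios of 0.29 (0.14 to 0.43) for HHcy and 0.41 (0.29 to 0.53) for WD. There 1 of 3 genes (Nkg7, 7.83% of all genes) and 3 of 5 genes (Nkg7, Ifng and Xcl1, 6.84%) were called, at levels between 0 and 6.81 CPM.

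Genes around this pathway were taken from 6 lists of 62 genes, 55 of which were tested. NK cells were higher than CD8 T cells for 9 and lower for 3, where 3.41% of all genes passed. The granzyme inhibitors Serpinb6b (3.12) and Serpinb9 (2.68) were higher, as were the receptors Cd244a (3.04), Klrg1 (2.44) and Klrc2 (2.10), the granule tethering gene Sytl3 (1.86), the chemokine Ccl3 (1.90) and the transcription factors Eomes (1.44) and Id2 (1.41). Tcf7 (-3.03) and Lef1 (-2.53), factors of naive and memory T cells, and the interferon gamma receptor chain Ifngr2 (-3.47) were lower. CD8 T cells were higher than CD4 T cells for 5 of the 55 and lower for 2, where 1.40% of all genes passed. The higher ones were Klrc1 (5.09), the T-box factor Eomes (2.73), the chemokine Ccl5 (2.66) and the cathepsin Ctsw (1.61), and the fifth, Klrc2, had no UMI in CD4 T cells. The kinase gene Jak2 (-1.07) and Bhlhe40 (-0.98) were lower. Gamma-delta T cells were higher than CD4 T cells for 1, Ifngr1 (1.17), and lower for 1, Jak2 (-1.62), where 1.86% of all genes passed.

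On the receiving side, cDC1-like cells were higher than cDC2-like cells for the Xcl1 receptor Xcr1 (6.39, SE 0.28), for Igf2r (4.70), which encodes a receptor that can take up granzyme B, and for Serpinb6b (2.02). In all, 6 of the 55 genes were higher and 13 lower in cDC1-like cells, against 7.80% and 9.41% of all genes. Among the lower ones were the cathepsin inhibitor Cst7 (-3.90), Ctsw (-3.33) and Stat4 (-3.15). Against macrophages and monocytes, cDC2-like cells were higher for 16 and lower for 13 of the 55, against 14.4% and 17.7% of all genes, with Cst7 (3.66), Tcf7 (2.44), Tbx21 (2.24) and Jak2 (1.94) higher and Igf2r (-3.24), Fcgr3 (-2.24), Ccl3 (-1.87) and Fas (-1.61) lower.

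The genes most alike in level were found by Pearson's r of log2(CPM + 10) over 43 class sums, compared with 14455 genes. The class sums share libraries, so r is a description. Nkg7 (0.974) and Gzmb (0.971) were most like Ctsw, Gzma most like Samd3 (0.958) and Gzmb (0.954), and Fasl most like Gzmb (0.961) and Nkg7 (0.958). Ifng (0.925) and Xcl1 (0.917) were most like Nkg7. Prf1 was most like Klrb1c (0.947) and Klra7 (0.944), both genes of the NK gate. Gzmk had weaker matches, Dapl1 (0.819) and 1110013H19Rik (0.781), and Dapl1 had no UMI in NK cells. Klrd1 was most like Klrk1 (0.919), which encodes the receptor NKG2D and is in the NK gate, and Cd7 (0.831). Klrk1 stood at 111, 106 and 75.3 CPM in cDC2-like cells and at 534, 742 and 478 CPM in NK cells, and Cd7 at 114, 249.7 and 105 CPM in cDC2-like cells.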

How the data were processed

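The authors deposited 1 matrix of raw UMI counts per library (10x Chromium 3' v3). The genome build was mm10 per the submitters' processing notes, which name Cell Ranger 2.2.0, while the deposited matrices' headers name 4.0.0. Barcodes with at least 200 genes and at most 10% mitochondrial UMIs were kept, and those with markers of more than 1 lineage were left out as likely doublets (limits of 6 of 10 B, 5 of 23 T/NK, 11 of 29 myeloid, 6 of 9 neutrophil and 5 of 12 stromal genes, set after the data were seen). Cells were clustered (Leiden, leidenalg 0.10.2, resolution 1, 30 components, 20 neighbours, 2000 variable genes) without the 9 genes and the pathway lists. Dendritic classes were named from clusters and lymphoid classes from receptor gates. UMI counts were summed per class and library and tested with edgeR 4.0.16 (quasi-likelihood, TMM, library as block, R 4.3.3), with DESeq2 1.42.0 as an alternative. All named classes with at least 10 cells in a library entered each fit. CPM uses the class total. Intervals are exact 95% Poisson or Clopper-Pearson intervals of counting error only. Nothing was tested between treatments, with 1 library each. The test script was tested on simulated data. All 9 genes are named, with up to 4 called genes per pathway list with the largest fold changes in each class test, and the 2 most alike genes of each member. Members and lists were chosen with earlier results of these data known.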

Additional observations from a re-analysis of the deposited data

Results flagged for a closer look

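In 8 comparisons a gene was called higher in 1 lymphocyte class and lower in another under the same library contrast. Both counting intervals had to exclude no change. The share of all genes with such opposite calls was not counted. Within a class and contrast, 15.1% to 24.1% of all genes were called in either direction. With 1 library per group the difference between classes was not tested, and values are log2 ratios. Xcl1 of HHcy over Ctrl was 1.93 in NK cells and -1.17 in CD8 T cells, Xcl1 of WD over Ctrl was 4.05 in NK and -2.50 in gamma-delta T cells, and Xcl1 of HHcy over WD was 3.44 in gamma-delta T and -2.11 in NK cells. Gzmb of HHcy over WD was 1.85 in NK and -2.88 in CD4 T cells, and Gzmb of WD over Ctrl was 1.76 in CD4 and -2.15 in gamma-delta T cells. Gzma was 2.91 in CD4 and -8.25 in gamma-delta T cells for HHcy over Ctrl, and 5.80 and -1.75 for WD over Ctrl. Nkg7 of HHcy over WD was 1.20 in gamma-delta T and -1.42 in CD4 T cells. Without the top cell of each library, Gzma in gamma-delta T cells was -1.02 for HHcy over Ctrl and 1.71, the opposite sign, for WD over Ctrl. Xcl1 was then -0.92 in gamma-delta T cells for WD over Ctrl and -0.63 in CD8 T cells for HHcy over Ctrl, both under 2-fold, and -1.27 in NK cells for HHcy over WD. Too few UMIs then remained for a ratio of Gzma in CD4 T cells (HHcy over Ctrl). The same held in gamma-delta T cells for Gzmb (WD over Ctrl) and Xcl1 (HHcy over WD).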

How the results depend on the processing

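Genes called between NK and CD8 T cells (395) numbered 172 to 243 with 1 library left out. For CD8 against CD4 T cells (162) they numbered 69 to 105 with 1 library left out, 291 without the low-count filter, 92 with doublets kept and 268 with sub-clusters. For gamma-delta against CD4 T cells (216) they numbered 84 to 153, 359 without the filter and 349 with sub-clusters. For cDC2-like cells against macrophages (3718) and cDC1-like against cDC2-like cells (1993) they numbered 2458 to 2676 and 1286 to 1417 with 1 library left out. The cause was not tested beyond the smaller number of libraries. Of the 9 genes over 4 lymphocyte classes, calls of HHcy over Ctrl (9) became 5 with sub-clusters, 4 thinned to 1000 UMIs and 4 without top cells, and those of HHcy over WD (13) became 7 with sub-clusters and 7 thinned.

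Log2 fold changes that reversed were Ifng (-1.08) and Xcl1 (-0.17) for NK against CD8 T cells and Gzma (-1.23) for gamma-delta against CD4 T cells, all with sub-clusters. In the last comparison Gzmb was 0.16 under DESeq2 and Xcl1 -0.48 with gates of 2 UMIs. With 1 library left out, Gzmb ranged from -1.40 to 1.42, Prf1 from -1.44 to 1.95 and Xcl1 from -0.30 to 1.94 there. With doublets kept, log2 ratios in CD4 T cells became 1.59 (Gzmb) and 0.22 (Gzmk) for HHcy over Ctrl, -0.49 (Ifng) for WD over Ctrl, and 0.18 (Ifng) and 1.87 (Xcl1) for HHcy over WD. In gamma-delta T cells they became 0.78 (Gzma, HHcy over Ctrl), 3.02 (Gzma), 0.80 (Gzmb) and 1.38 (Xcl1) for WD over Ctrl, and -1.10 (Xcl1, HHcy over WD). Sub-clusters gave -1.05 for Gzma (HHcy over Ctrl) and -3.28 for Ifng (WD over Ctrl) in CD4 T cells. Without top cells Gzmb was 0.46 (CD4, HHcy over Ctrl) and Gzma 1.71 (gamma-delta, WD over Ctrl), and thinning gave 0.32 for the latter and -0.064 for Xcl1 (gamma-delta, HHcy over WD). The cause of these was not tested.

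Without the replicate block, which pairs classes of 1 library, Gzmb was 1.46 between NK and CD8 T cells (adjusted p = 0.0759, edgeR) and 1.68 between CD8 and CD4 T cells (adjusted p = 0.107), and Ifng was -2.57 between gamma-delta and CD4 T cells (adjusted p = 0.15). It changed no other call among the 9 genes. Of 321 fold changes under alternatives 265 kept direction and side of the threshold. The 14 to 23 NK cells per library limit every NK value.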

Other observations

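A cluster of 170 cells without a class name (61, 40 and 69 in the Ctrl, HHcy and WD libraries), led by the granule protease gene Prtn3 and histone genes, also held Nkg7 and Klrd1. Nkg7 stood at 26.3, 31.7 and 77.4 CPM with UMIs in 25 cells, and Klrd1 at 42.6, 64.7 and 69.8 CPM with UMIs in 60 cells. No explanation was tested.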
